A study of Homo sapiens with 24 samples.

Results

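The Notch receptors NOTCH1, NOTCH2 and NOTCH3 and the ligands JAG1, JAG2 and DLL1 were followed in HCT-116 cells. With them were followed the target genes HES1 and HEY1, HES6 of the HES family, and the secretory fate gene ATOH1. The cells were treated with sodium butyrate, with doxycycline or with both. These 10 genes were picked by name among the 27254 gene names on the array, and 15 of the 34127 probes carried their names. Of the 10 genes, 9 were bright enough to be tested, through 14 probes, and ATOH1 was not. In cells without doxycycline, butyrate was followed by higher levels of HEY1 (15.6-fold), HES1 (2.52-fold) and HES6 (2.27-fold) and by lower levels of JAG2 (2.09-fold) and JAG1 (1.63-fold). HEY1 and HES1 were not well above background on 2 of the 6 untreated arrays, the size of both rises was smaller with another background correction, and the HES1 rise passed the test under 15 of 19 alternatives. HEY1 was the only tested gene of the 9 whose butyrate response differed with doxycycline, and that difference passed the test under 7 of 18 alternative ways of processing.

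HCT-116 is a human colorectal cancer cell line, and all arrays came from 1 stably transfected clone of it that carries the Tet repressor and a doxycycline-inducible, FLAG-tagged dominant negative Tcf4 (DN-Tcf4), a Tcf4 protein without the part that binds beta-catenin. The 4 treatments were no agent (Ctl), 5 mM sodium butyrate (NaB), 4 µg/ml doxycycline (Doxy) and both agents (DoxyNaB), for 17.5 hr, with 6 arrays each from 6 numbered experiments, 24 arrays in all. Every treatment, Ctl included, thus carries both vectors, and results from 1 clone cannot be told apart from properties of that clone. The comparisons NaB/Ctl and DoxyNaB/Doxy ask how butyrate changed expression without and with the inducer of DN-Tcf4. The paper reports minimal DN-Tcf4 protein with doxycycline alone and high levels with both agents. By that report, DoxyNaB/Doxy differs in butyrate and in DN-Tcf4 together, and Doxy/Ctl differs little in DN-Tcf4 protein. The paper also reports lower activity of a Wnt reporter gene with doxycycline alone than in untreated cells. Doxy/Ctl is thus not free of a difference in Wnt activity.

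A level is given here as the log2 of the processed spot signal minus the log2 of the array's 75th percentile, so a level of 0 is as bright as that percentile. Levels of different probes cannot be compared, since probes differ in how brightly they hybridise. The share of spots well above background was 78.3% to 88.1% on the 12 arrays of experiments 2 to 4, which were scanned together, and 52.5% to 62.4% on the other 12 arrays. In experiment 1, the Ctl and Doxy arrays shared a slide and scan, and the NaB and DoxyNaB arrays shared another slide and scan. Butyrate differences of experiment 1 thus cannot be told apart from differences of slide and scan. AXIN2, a Wnt target, fell by 0.58 in Doxy/Ctl (limma, adjusted p = 0.00289) and by 2.53 in DoxyNaB/NaB (adjusted p = 2.63e-11). TCF7L2, the gene of Tcf4, changed by -0.17 in Doxy/Ctl (adjusted p = 0.921) and rose by 2.96 in DoxyNaB/NaB (adjusted p = 3.64e-05) at its brightest probe, while another of its 3 probes fell by 1.25 in DoxyNaB/NaB (adjusted p = 0.00568). Of the epithelial markers, EPCAM, CDH1, KRT8, KRT18, KRT19 and CDX2 were bright enough to be tested and VIL1 and LGALS4 were not. Of the markers of other cell types, COL1A1 was tested and PTPRC, CD3E, PECAM1, COL1A2 and COL3A1 were not. In NaB/Ctl and DoxyNaB/Doxy, EPCAM fell by 1.45 and 1.50 and CDX2 by 0.67 and 0.64, while CDH1 rose by 0.99 and 0.87, KRT19 by 0.97 and 0.61, KRT8 by 0.63 and 0.64, and COL1A1 by 1.09 and 1.37. The part of these markers in the results was not tested.

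Notch receptors span the cell membrane and are switched on by ligands of the Jagged and Delta-like families on a neighbouring cell. Ligand binding leads to cuts by an ADAM protease and then by gamma-secretase, which free the intracellular part of the receptor to enter the nucleus and turn the DNA-binding protein RBPJ into an activator of genes such as HES1 and HEY1. HES and HEY proteins are basic helix-loop-helix repressors, and HES6 is known as an inhibitor of HES1. In the intestinal epithelium, Notch activity keeps progenitors on the absorptive path, and HES1 represses ATOH1, the gene that commits cells to the secretory lineages of goblet, Paneth and enteroendocrine cells.

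The promoters of HES1 and HES6 are shown because both genes rose with butyrate and their promoters differ in matches to the site of RBPJ, the DNA-binding protein of the pathway. They are the 250 bases before the gene's start from RefSeq on GRCh38.p14, read 5′ to 3′ on the strand of the gene, with the RBPJ core TGGGAA, searched on both strands, in capitals.
HES1, chr3:194135898-194136147, plus strand: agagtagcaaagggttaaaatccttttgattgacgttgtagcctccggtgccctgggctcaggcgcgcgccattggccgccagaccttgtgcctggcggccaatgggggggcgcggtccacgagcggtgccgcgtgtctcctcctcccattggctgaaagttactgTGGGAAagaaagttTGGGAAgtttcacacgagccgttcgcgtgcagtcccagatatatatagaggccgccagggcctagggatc
HES6, chr2:238240039-238240288, minus strand: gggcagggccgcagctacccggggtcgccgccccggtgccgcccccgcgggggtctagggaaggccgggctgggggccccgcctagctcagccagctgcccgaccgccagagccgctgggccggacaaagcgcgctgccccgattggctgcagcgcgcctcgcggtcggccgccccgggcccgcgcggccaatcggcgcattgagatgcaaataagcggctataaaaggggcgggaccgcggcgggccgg
The HES1 window held the core 2 times, beginning 84 and 70 bases before the start, and the HES6 window held it 0 times. Of 35116 RefSeq promoters cut to the same window, 20.8% held the core at least 1 time and 2.9% at least 2 times. The HES1 window also held CACNAG, the N-box letters that HES proteins bind, 3 times, counted over both strands. Of the promoters, 32% held it at least 1 time and 6.32% at least 2 times. ATOH1 held CACNAG 1 time and CTTTGA, the core of TCF/LEF sites, 1 time, where 11.2% of promoters held CTTTGA. The windows of NOTCH1, NOTCH2, JAG1 and JAG2 held none of the 3 motifs, NOTCH3 held 1 CACNAG, and none of these matches overlapped another. Of the 10 genes, 8 had an entry in the table of promoters.

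Probes of 60 bases read the mRNAs, and their place in the mRNA bears on what they report. The probes printed are those of HES1 and ATOH1, the brighter NOTCH1 probe, and the HES6 probe with the largest change of its 4, which is not the one that represents HES6 below, with the positions given in the files on NCBI36. In the NOTCH1 probe, the capitals mark the last 3 bases, which spell a stop codon.
HES1, chr3:195336970-195337157, plus strand: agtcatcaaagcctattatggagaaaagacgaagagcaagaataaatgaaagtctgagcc
HES6, chr2:238812889-238812948, minus strand: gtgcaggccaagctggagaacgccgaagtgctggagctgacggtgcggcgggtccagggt
ATOH1, chr4:94969633-94969692, plus strand: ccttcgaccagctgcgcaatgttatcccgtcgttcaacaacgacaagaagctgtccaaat
NOTCH1, chr9:138510344-138510403, minus strand: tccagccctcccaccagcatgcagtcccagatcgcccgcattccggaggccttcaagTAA
The HES1 probe covers 188 genomic bases with 60 bases of sequence, so it crosses at least 1 intron, while the other 3 probes lie in 60 contiguous genomic bases. Each of the 4 probes has a reading frame with no stop codon before its last 3 bases.

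NOTCH2 separated the arrays with butyrate from those without. It rose by 0.74 in NaB/Ctl (95% interval 0.55 to 0.93, adjusted p = 7.75e-07) and by 0.64 in DoxyNaB/Doxy (0.45 to 0.84, adjusted p = 4.68e-06), which is 1.67-fold and 1.56-fold. Its level ran from 1.60 through a median of 1.71 to 1.88 in Ctl, from 2.26 through 2.46 to 2.64 in NaB, from 1.52 through 1.63 to 1.80 in Doxy, and from 2.04 through 2.27 to 2.63 in DoxyNaB. All 12 butyrate arrays were above all 12 arrays without butyrate. The other NOTCH2 probe, further 5′ in the gene, rose by 0.40 (adjusted p = 2.74e-05) and 0.26 (adjusted p = 0.00209), with overlapping arrays.

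NOTCH1 was higher in butyrate on average, with arrays that overlapped. Its level ran from -1.57 through -1.32 to -0.73 in Ctl, from -1.18 through -0.71 to -0.32 in NaB, from -1.77 through -1.57 to -1.22 in Doxy, and from -1.40 through -0.83 to -0.11 in DoxyNaB. It rose by 0.49 in NaB/Ctl (0.18 to 0.79, adjusted p = 0.00567) and by 0.68 in DoxyNaB/Doxy (0.37 to 0.99, adjusted p = 0.000391), higher in 6 of 6 experiments both times. The NaB/Ctl call passed the test under 5 of 20 alternatives and was lost without experiment 1 (adjusted p = 0.0285), 4 (0.0471), 5 (0.0124) or 6 (0.0126). The other NOTCH1 probe, which has 10 spots per array and lies further 3′, changed by 0.11 in NaB/Ctl (adjusted p = 0.517) and 0.42 in DoxyNaB/Doxy (adjusted p = 0.0156), so the 2 probes did not give the same call.

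NOTCH3 did not pass the test in either butyrate comparison. Its level ran from 0.26 through 0.62 to 1.18 in Ctl, from 0.16 through 0.33 to 0.69 in NaB, from 0.37 through 0.60 to 1.14 in Doxy, and from 0.20 through 0.47 to 0.88 in DoxyNaB. It was lower in NaB than in Ctl in 6 of 6 experiments, with a difference of -0.26 (-0.47 to -0.05, adjusted p = 0.0236), and the difference in DoxyNaB/Doxy was -0.11 (-0.32 to 0.10, adjusted p = 0.329). Without experiment 6 the NaB/Ctl difference passed the test, at -0.29 (adjusted p = 0.00833).

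With each array scaled to its median after a floor of 5 was set, instead of to its 75th percentile, the receptors' NaB/Ctl changes moved with all probes, whose median change went from 0.17 to -0.58. NOTCH2 was then at -0.01 (adjusted p = 0.975) and NOTCH1 at -0.26 (adjusted p = 0.200), both above that median, while NOTCH3 was below it at -1.01 (adjusted p = 0.000316).

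**Figure D1:**
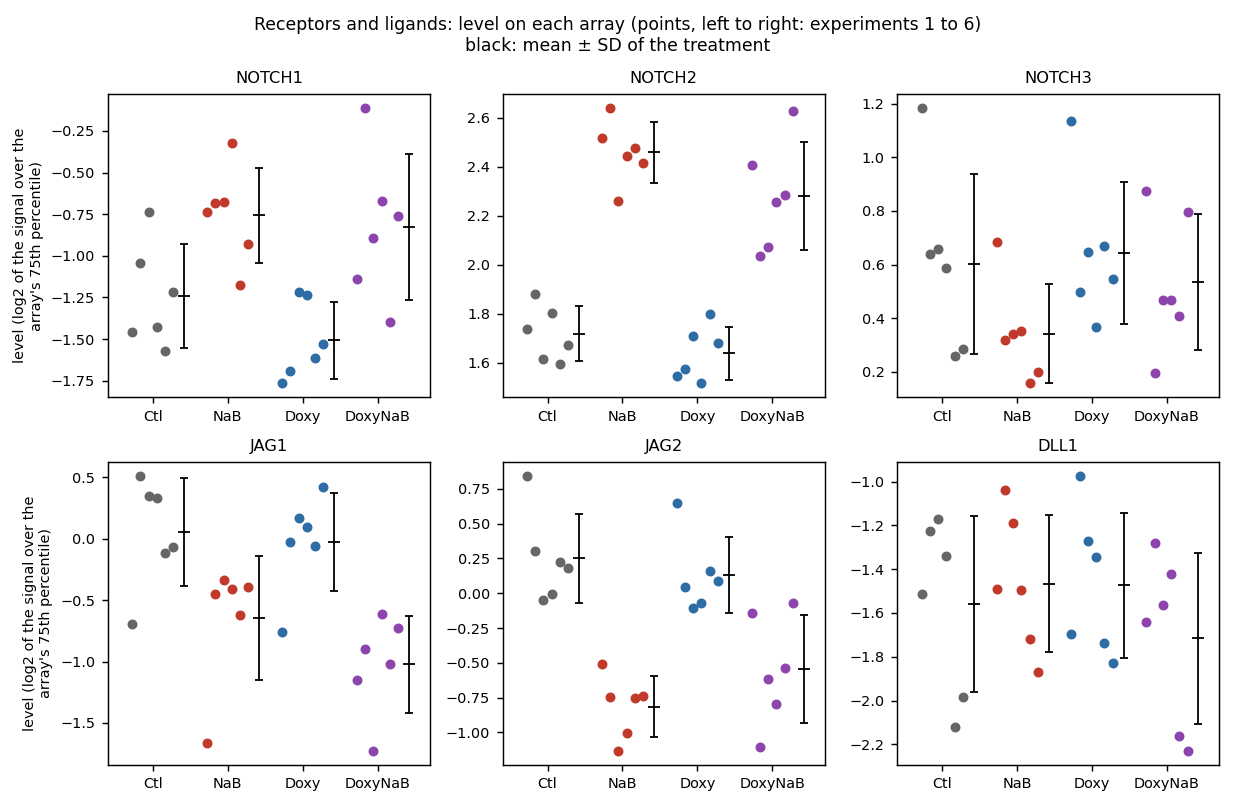
Level of the receptors (top) and ligands (bottom) on each of 24 arrays, as log2 of the signal over the array's 75th percentile, with experiments 1 to 6 from left to right within each treatment and the mean ± SD in black. The butyrate arrays of NOTCH2 lie above 2.03 and the other arrays below 1.89, and the NaB arrays of JAG2 lie below all Ctl arrays, while DLL1 overlaps throughout.

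Both Jagged ligands fell with butyrate. JAG2 ran from -0.05 through 0.21 to 0.84 in Ctl and from -1.13 through -0.75 to -0.51 in NaB, with no overlap, and it fell by 1.07 (2.09-fold, adjusted p = 6.08e-08). In Doxy it ran from -0.10 through 0.07 to 0.65 and in DoxyNaB from -1.10 through -0.58 to -0.07, and the fall of 0.67 (1.59-fold, adjusted p = 1.94e-05) was seen in 6 of 6 experiments with arrays that overlapped. The difference between these butyrate responses was -0.39 (-0.71 to -0.07) and did not pass the test (adjusted p = 0.277). JAG2 kept its NaB/Ctl call past the adjusted p under all 20 alternatives, with changes of -1.82 to -0.92.

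JAG1, which is known as a Wnt target as well as a Notch ligand, ran from -0.69 through 0.14 to 0.51 in Ctl, from -1.66 through -0.43 to -0.34 in NaB, from -0.76 through 0.03 to 0.42 in Doxy, and from -1.73 through -0.96 to -0.61 in DoxyNaB. It fell by 0.70 in NaB/Ctl (1.63-fold, adjusted p = 0.00136) and by 1.00 in DoxyNaB/Doxy (adjusted p = 4.7e-05), lower in 6 of 6 experiments both times. Experiment 1 gave the lowest JAG1 level in Ctl, NaB and Doxy. The DoxyNaB/Doxy change stood just short of 2-fold and went past it without experiment 1 (-1.12), 2 (-1.02), 4 (-1.05) or 5. Without experiment 3, whose DoxyNaB array had the lowest JAG1 level of all, it was -0.82.

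DLL1, a Delta-like ligand, stayed between -2.23 and -0.97 over all 24 arrays. Its median was -1.43 in Ctl, -1.49 in NaB, -1.52 in Doxy and -1.60 in DoxyNaB, and the 4 treatments overlapped. It changed by 0.09 in NaB/Ctl (-0.07 to 0.26, adjusted p = 0.287) and fell by 0.24 in DoxyNaB/Doxy (1.18-fold, adjusted p = 0.00904). That call passed the test under 7 of 20 alternatives and was lost without experiment 2, 3, 5 or 6 (adjusted p = 0.0267 to 0.0497). Under the floor and scaling to the median the NaB/Ctl difference turned to -0.66 (adjusted p = 0.00593), beside the shift of -0.58 over all probes.

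HEY1 was the target with the largest response of the 9 tested members. Its level ran from -5.62 through -4.90 to -4.46 in Ctl and from -1.28 through -1.04 to -0.87 in NaB, a rise of 3.96 (3.66 to 4.26, 15.6-fold, adjusted p = 5.61e-14). In Doxy it ran from -4.57 through -4.05 to -3.53 and in DoxyNaB from -1.52 through -1.21 to -1.04, a rise of 2.81 (2.51 to 3.11, 7.03-fold, adjusted p = 4.26e-12). The 12 butyrate arrays lay more than 2 log2 units above the other 12. The HEY1 signal passed the background test on 4 of 6 Ctl arrays and on all 18 others. With the normexp background correction, which adds an offset of 50 to every spot, the rises were 1.85 in NaB/Ctl and 1.74 in DoxyNaB/Doxy, and both passed the test.

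HES6 rose in every experiment in which it was measured. Its brightest probe ran from 2.06 through 2.28 to 2.60 in Ctl, from 3.18 through 3.50 to 3.79 in NaB, from 2.05 through 2.15 to 2.33 in Doxy, and from 2.83 through 3.21 to 3.52 in DoxyNaB. Neither butyrate treatment overlapped its control. The NaB array of experiment 6 was left out of the fit at this probe, since its spot carried an outlier flag, so NaB has n = 5. The rise was 1.18 in NaB/Ctl (2.27-fold, adjusted p = 2.45e-09) and 1.02 in DoxyNaB/Doxy (2.03-fold, adjusted p = 1.32e-08). Across all 4 HES6 probes the rise was 1.18 to 1.59 in NaB/Ctl and 1.02 to 1.29 in DoxyNaB/Doxy. The printed HES6 probe gave the largest of these, 1.59 and 1.29. The DoxyNaB/Doxy rise was under 2-fold without experiment 1 (0.99) or 3 (0.98), and scaling to the median left 0.37 in NaB/Ctl (adjusted p = 0.180) and 0.46 in DoxyNaB/Doxy (adjusted p = 0.0953).

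HES1 spread more between experiments than between treatments. Its level ran from -5.47 through -3.32 to -2.28 in Ctl, from -3.49 through -2.26 to -0.93 in NaB, from -3.89 through -2.61 to -1.86 in Doxy, and from -4.01 through -2.23 to -0.88 in DoxyNaB. In experiments 2 to 4, the 12 arrays scanned together, it lay between -2.43 and -0.88, and on the other 12 arrays it lay between -5.47 and -2.50, with no overlap. Its signal passed the background test on 4 of 6 Ctl arrays and on all 18 others. The part of the scan in the level of HES1 was not tested.

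Within experiments, HES1 was higher in NaB than in Ctl by 2.40, 0.89, 1.34, 0.97, 1.17 and 1.25 in experiments 1 to 6. The largest of these, in experiment 1, compares arrays of different slides and scans. The rise of 1.34 (0.73 to 1.94, 2.52-fold) passed the test (adjusted p = 0.000386), and within experiments 2 to 4 alone it was 1.07 (adjusted p = 0.00911). It did not pass with normexp (0.39, adjusted p = 0.251), with scaling to the median (0.59, adjusted p = 0.0434), without the experiment as a block (adjusted p = 0.0685) or within experiments 5 and 6 alone (1.21, adjusted p = 0.0220). In DoxyNaB/Doxy the differences were 1.39, 1.37, 0.13, 0.86, 0.30 and -1.05, with a mean of 0.50 (-0.10 to 1.10, adjusted p = 0.123). Without experiment 6 that mean was 0.81 (adjusted p = 0.0163). The difference of 0.84 between the butyrate responses (-0.02 to 1.69) did not pass the test (adjusted p = 0.428), so a loss of the HES1 response with doxycycline is not shown by these arrays.

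ATOH1 was near background on most arrays and was not tested. Its signal passed the background test on 1 of 6 Ctl, 3 of 6 NaB, 0 of 6 Doxy and 3 of 6 DoxyNaB arrays, and all 7 of these arrays were in experiments 2 to 4. The mean net signal of the negative control spots was 114.6, 161.0 and 112.1 on the NaB arrays of experiments 2 to 4. On the DoxyNaB arrays of these experiments it was 248.9, 69.1 and 110.9, and on their Ctl and Doxy arrays 63.1 to 79.6. The part of this background in the ATOH1 counts was not tested. The level of ATOH1 ran from -7.46 through -6.04 to -4.59 in Ctl, from -6.93 through -5.25 to -2.86 in NaB, from -8.28 through -7.31 to -5.54 in Doxy, and from -7.40 through -6.13 to -2.40 in DoxyNaB. The treatments overlapped, and on the 12 arrays of experiments 1, 5 and 6 it stayed between -7.57 and -6.17. No Doxy array was well above background, and with each Doxy array at the higher of its own value and the lowest signal well above background, DoxyNaB stood at least 1.07-fold above Doxy. That bound was lost without experiment 2, 3 or 4, where the ratio was 0.642, 0.980 and 0.849, so these arrays set no lower limit that holds without each of them. In a fit with no filter, ATOH1 changed by 0.98 in NaB/Ctl (adjusted p = 0.151) and by 1.76 in DoxyNaB/Doxy (adjusted p = 0.0214). The median change of all 34127 probes in that fit was 0.69 and 0.50.

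**Figure D2:**
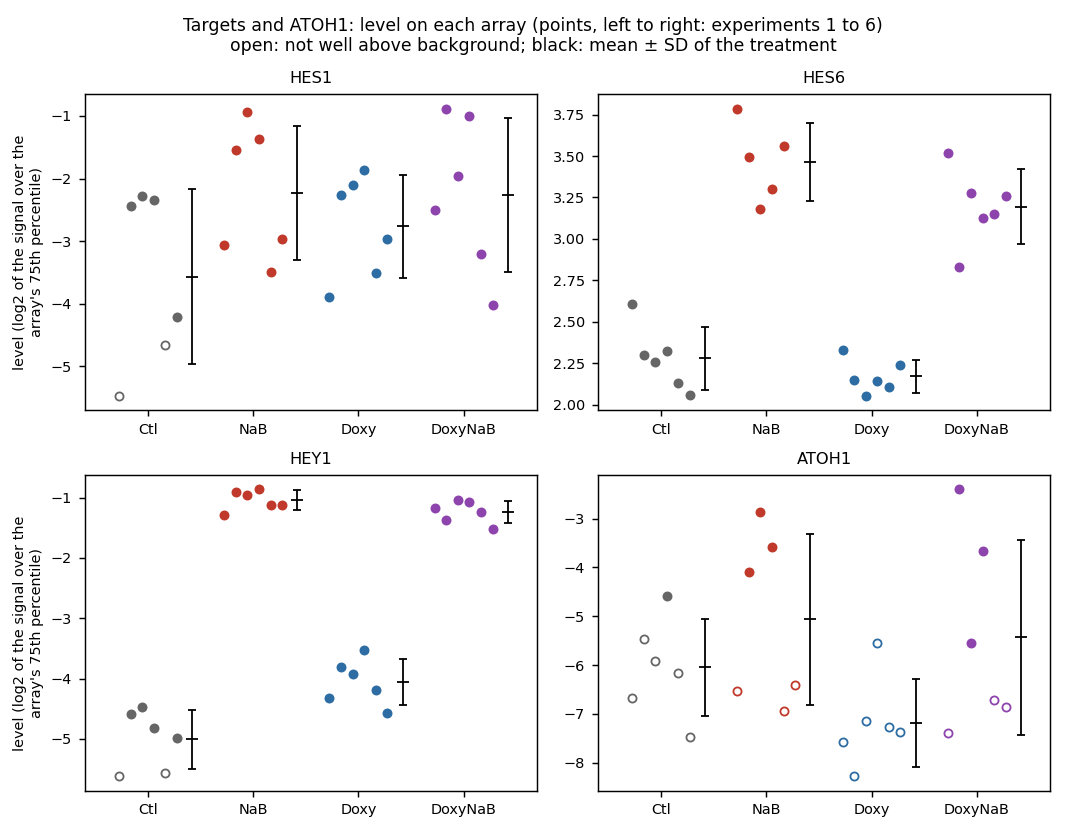
Level of HES1, HES6, HEY1 and ATOH1 on each array, as log2 of the signal over the array's 75th percentile, with experiments 1 to 6 from left to right and the mean ± SD in black. Open circles were not well above background. HEY1 forms a high group of 12 butyrate arrays, and the highest HES1 and ATOH1 values are those of experiments 2 to 4.

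Counted over the 9 tested members, NaB/Ctl gave 5 higher and 2 lower past an adjusted p of 0.01, where 40.1% of the 18962 tested probes were higher and 28.2% lower. Past 2-fold as well stood 3 higher (HES1, HES6 and HEY1) and 1 lower (JAG2), against 20.7% and 11% of all tested probes. In DoxyNaB/Doxy, 4 were higher (NOTCH1, NOTCH2, HES6 and HEY1) and 3 lower (JAG1, JAG2 and DLL1) past the adjusted p, against 37.3% and 29.7%, and past 2-fold were 2 higher (HES6 and HEY1) and 0 lower, against 18.3% and 12.3%. Changes of this kind were thus common over the whole array. The median log2 change of the 9 members was 0.49 in NaB/Ctl and 0.50 in DoxyNaB/Doxy, beside 0.17 and 0.10 over all tested probes.

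**Figure D3:**
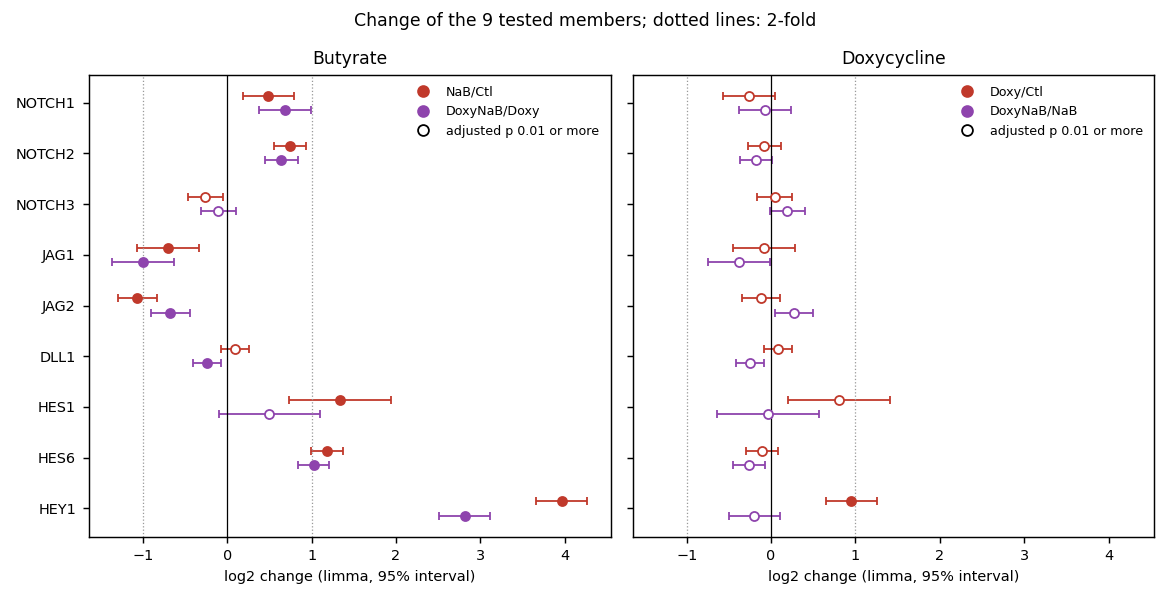
Log2 change with its 95% interval from limma for the 9 tested members, for butyrate (left) and doxycycline (right), with filled points past an adjusted p of 0.01 and dotted lines at 2-fold. HEY1 stands apart at 3.96 and 2.81 for butyrate, the Jagged genes lie left of 0, and HEY1 in Doxy/Ctl is the single filled point for doxycycline.

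Doxycycline changed few members. In Doxy/Ctl, 1 of the 9 rose and 0 fell past the adjusted p, against 0.411% and 0.0897% of all tested probes, and 0 were past 2-fold, where 0.0686% were higher and 0.0264% lower. In DoxyNaB/NaB, 0 of the 9 passed in limma, against 0.617% higher and 1.87% lower over all probes, and 0.127% and 0.248% past 2-fold. At an unadjusted p below 0.05, limma gave 4 of the 9 (JAG1, JAG2, DLL1 and HES6), where 15.3% of all tested probes were below it, while 0 passed an adjusted p of 0.01 in the methods' t-test. The lowest adjusted p among the representing probes was that of DLL1, at -0.25 (-0.41 to -0.09, adjusted p = 0.0833). Of the other HES6 probes, 2 were lower in 6 of 6 experiments, at -0.33 (adjusted p = 0.0151) and -0.35 (adjusted p = 0.0240).

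The gene that rose in Doxy/Ctl was HEY1, by 0.95 (0.65 to 1.25, 1.93-fold, adjusted p = 0.00123). The differences were 1.31, 0.78, 0.55, 1.28, 1.38 and 0.41 in experiments 1 to 6, all above 0, though the arrays of the 2 treatments overlapped. In DoxyNaB/NaB, HEY1 changed by -0.20 (-0.50 to 0.10, adjusted p = 0.583) and was lower in 5 of 6 experiments. HES1 was also higher in Doxy than in Ctl in 6 of 6 experiments, by 0.80 (0.20 to 1.41), which did not pass the test (adjusted p = 0.223).

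The butyrate response of HEY1 was 1.15 larger without doxycycline than with it (0.73 to 1.57, adjusted p = 0.00275), and the sign held in 6 of 6 experiments, from 0.63 to 1.50. Over all tested probes, 1.02% had a larger response without doxycycline past the adjusted p and 0.216% a smaller one. HEY1 was higher in Doxy than in Ctl by more than DoxyNaB differed from NaB, so the difference in response lay mostly in the 2 treatments without butyrate, where HEY1 was dimmest. With normexp the Doxy/Ctl change of HEY1 was 0.09 (adjusted p = 1.00) and the difference in response 0.11 (adjusted p = 0.886). The difference did not pass with quantile normalization (1.07, adjusted p = 0.163), without the experiment as a block (adjusted p = 0.0364), or without experiment 2 (adjusted p = 0.0113), 4 (0.0292) or 5 (0.0191). The Doxy/Ctl rise passed under 9 of 19 alternatives, and not with quantile normalization (0.71, adjusted p = 0.252), without the experiment as a block (0.0184), or without experiment 4 (0.0197) or 5 (0.0177). None of the other 8 tested members passed the test of the difference, and their adjusted p lay between 0.161 and 0.834.

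**Figure D4:**
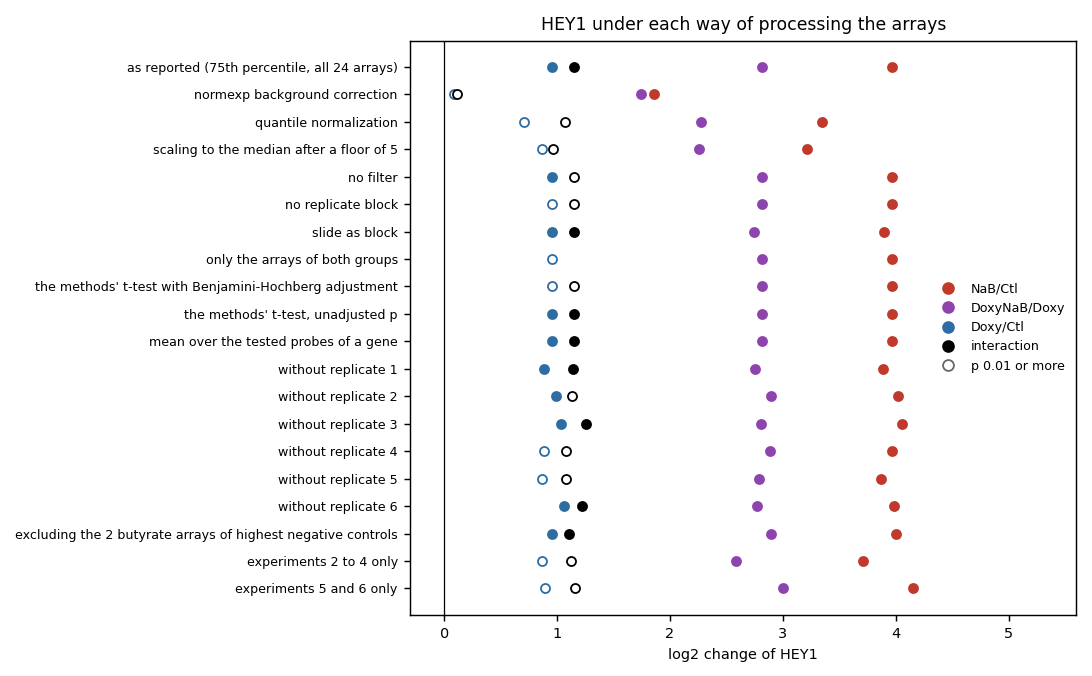
Log2 change of HEY1 in NaB/Ctl, DoxyNaB/Doxy and Doxy/Ctl, and the difference between its butyrate responses (interaction), under each way of processing the arrays, with open points at a p of 0.01 or more. The butyrate rises stay past the test throughout, while the Doxy/Ctl rise and the interaction fall to 0.09 and 0.11 with the normexp correction.

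Other genes of the pathway moved in both directions. Of 53 listed genes, 41 were tested, and 16 rose and 10 fell in NaB/Ctl, with 18 and 10 in DoxyNaB/Doxy. These shares lie near those of all tested probes, 40.1% and 28.2% in NaB/Ctl and 37.3% and 29.7% in DoxyNaB/Doxy. Past 2-fold they were 10 and 4 in NaB/Ctl, against 20.7% and 11%, and 10 and 5 in DoxyNaB/Doxy, against 18.3% and 12.3%. Their median change was 0.29 and 0.27, beside 0.17 and 0.10 over all tested probes. With the floor and scaling to the median, 7 rose and 17 fell in NaB/Ctl, and 6 and 12 in DoxyNaB/Doxy. Not tested were POFUT1, DTX1, DTX3, DTX4, MAML2, MAML3, HES5, HES7, HEY2, NEUROD1 and INSM1, which did not meet the brightness filter, and CIR1, for which no probe was matched.

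Among the ligands, 3 of 4 rose in both comparisons and 1 fell. Of all tested probes, 40.1% rose and 28.2% fell in NaB/Ctl, and 37.3% and 29.7% in DoxyNaB/Doxy. DLL4 and DLL3 passed the brightness filter only through butyrate arrays, where they were high, so the ligand count depends on the filter. DLL4, a Delta-like ligand best known from blood vessels, rose by 3.92 (adjusted p = 3.18e-09) and 3.88 (adjusted p = 3.66e-09), from a level of -6.15 ± 1.10 (SD, n = 6) in Ctl to -2.23 ± 0.62 in NaB, and its signal passed the background test on 3 of 6 Ctl and 3 of 6 Doxy arrays. It was tested only through its butyrate arrays, and with normexp its rises were 1.19 and 1.60. DLL3, a Delta-like protein that acts inside the cell that makes it, rose by 2.30 and 1.76, also with 3 of 6 Ctl and 3 of 6 Doxy arrays past the background test. It was tested only through NaB, and with normexp it changed by 0.55 (adjusted p = 0.121) and 0.91 (adjusted p = 0.0110). The atypical ligand DLK1 rose by 1.56 and 1.14 at its brighter probe and by 2.51 and 2.20 at the other, and the rise of 1.14 passed the test under 8 of 19 alternatives. DLK2 fell by 0.72 and 0.56. The receptor NOTCH4 fell by 0.81 (adjusted p = 0.000245) and 1.27 (adjusted p = 1.55e-06).

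LFNG, a glycosyltransferase that modifies Notch receptors, rose by 1.56 and 1.77, and its other probe by 0.51 and 0.65. The 8 protease genes divided. APH1B, a gamma-secretase subunit, rose by 1.47 in NaB/Ctl and by 1.29 in DoxyNaB/Doxy. The subunits NCSTN and APH1A fell, by 1.31 and 1.07 in NaB/Ctl and by 1.13 and 1.38 in DoxyNaB/Doxy. The ADAM10 gene, for a protease that makes the first cut, did not pass the test in either. The mean level of ADAM17, the other ADAM gene listed, was 0.26 in Ctl, 0.82 in NaB, 0.39 in Doxy and 0.58 in DoxyNaB.

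The pathway's inhibitors also divided. NRARP, a feedback inhibitor and Notch target, rose by 1.49 (adjusted p = 8.07e-12) and 1.19 (adjusted p = 1.72e-10). NUMB, an endocytic adaptor that inhibits Notch, rose by 0.98 and 1.01, and ITCH, a ubiquitin ligase that acts on Notch, fell by 1.32 and 1.24. In the nuclear complex 0 of 7 genes rose and 4 fell in NaB/Ctl, and 2 rose and 4 fell in DoxyNaB/Doxy, where the shares of all tested probes are those given above for the whole list. CTBP1, a co-repressor, fell by 1.15 and 1.04. RBPJ changed by -0.23 (adjusted p = 0.0421) and -0.25 (adjusted p = 0.0307).

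All 3 tested genes of the HES and HEY family outside the members rose in both comparisons, where 40.1% and 37.3% of all tested probes rose. The other 3 of the 6 listed, HES5, HES7 and HEY2, were not bright enough to be tested. HES2 rose by 3.08 (8.48-fold, adjusted p = 4.88e-15) and 2.07 (4.21-fold, adjusted p = 5.08e-13), HEYL by 1.04 and 1.03, and HES4 by 0.54 and 0.85. With the floor and scaling to the median, HES4 was at -0.21 in NaB/Ctl. HES2 was well above background on all 24 arrays, at -1.55 ± 0.28 (SD, n = 6) in Ctl, 1.53 ± 0.30 in NaB, -1.62 ± 0.22 in Doxy and 0.45 ± 0.32 in DoxyNaB. It fell by 1.08 in DoxyNaB/NaB (2.12-fold, adjusted p = 4.12e-07), lower in 6 of 6 experiments without overlap, and changed by -0.07 in Doxy/Ctl (adjusted p = 0.835). Its butyrate response was 1.01 larger without doxycycline (0.74 to 1.28, adjusted p = 0.000129). HES2 and HEY1 thus both passed the interaction, HES2 with its doxycycline difference in the butyrate-treated cells and HEY1 with its difference in the cells without butyrate. The HES2 interaction passed under 13 of 19 alternatives, and not, among others, with normexp (0.90, adjusted p = 0.146) or without the experiment as a block (adjusted p = 0.0297). HES4 rose by 0.40 in DoxyNaB/NaB (adjusted p = 0.00913), a call that passed under 6 of 20 alternatives. In Doxy/Ctl, 0 of the 41 genes passed in limma. Without adjustment, limma put 4 of the 41 below a p of 0.05, where 12.6% of all tested probes were below it. After adjustment, 0 of the 41 passed in the methods' t-test.

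Of the secretory lineage factors that act with or after ATOH1, GFI1 rose by 1.01 (adjusted p = 4.02e-08) and 0.53 (adjusted p = 9.94e-05), and NEUROG3, the enteroendocrine factor, passed the test with smaller rises. The GFI1 change in DoxyNaB/Doxy was -0.10 with quantile normalization and -0.03 with scaling to the median, and neither passed. SPDEF and BHLHA15 did not pass in either comparison.

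**Figure D5:**
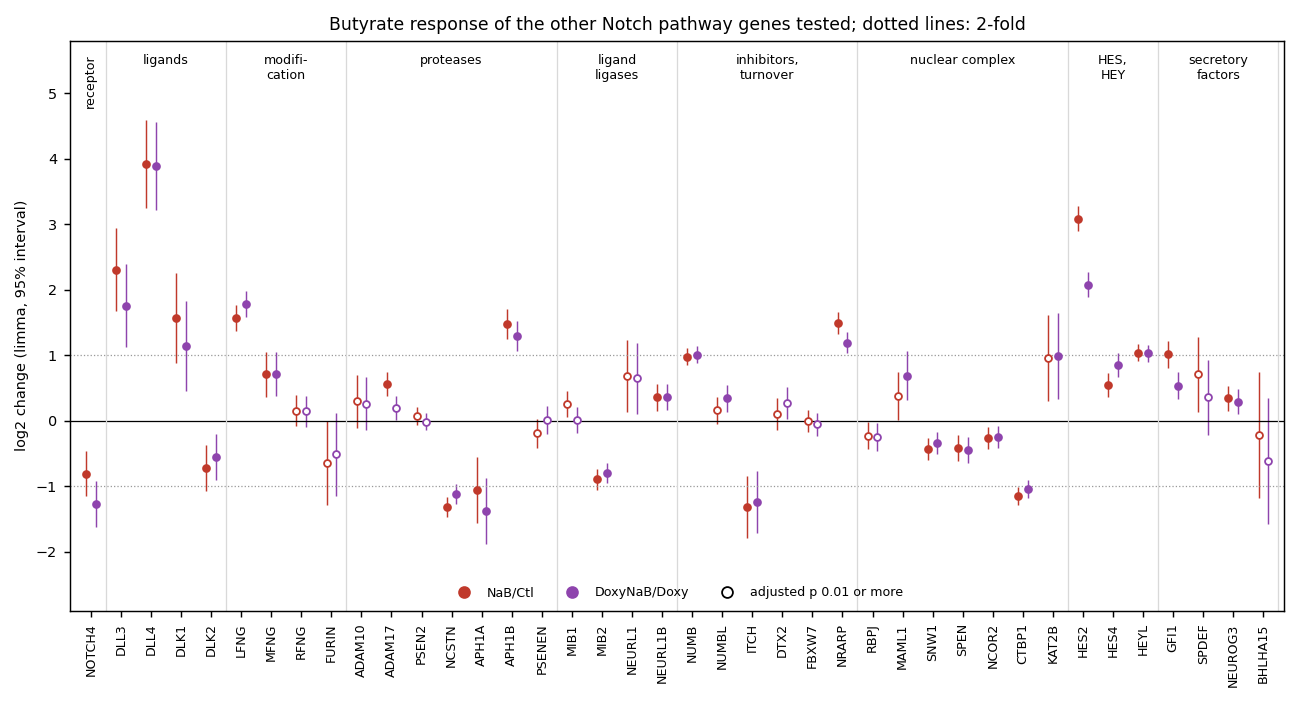
Log2 change with its 95% interval for the other Notch pathway genes tested, all but 1 of the 41, ordered by role, in NaB/Ctl and DoxyNaB/Doxy, with filled points past an adjusted p of 0.01 and dotted lines at 2-fold. DLL4 and HES2 stand at 3.92 and 3.08 in NaB/Ctl, DLL4 against Ctl arrays of which 3 of 6 passed the background test, and of the 41 genes only HES2 has a different response in the 2 comparisons past the test.

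The patterns of the members over the arrays were set against 13182 other named genes after each experiment's mean was taken out. All points share the same arrays and the same 4 treatments, so these correlations describe a shared treatment pattern and carry no p. HEY1 was most like HS3ST3B1 (Pearson's r = 0.991) and TTLL1 (0.990) over 24 arrays, and HES6 was most like DNAJB1 (0.983) and MYORG (0.982) over 23. JAG2 came closest to SCAMP4 (0.989), NOTCH2 to INTS1 (0.973), NOTCH1 to PPP1R14A (0.948), HES1 to IFT74 (0.932) and JAG1 to ANKRD17 (0.913). The weakest likeness was that of NOTCH3 to RECQL5 (0.865) and of DLL1 to ZFP37 (0.745), the members with the smallest changes.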

How the data were processed

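Expression was measured on 1-colour Agilent whole human genome arrays, 4 treatments with 6 arrays each. Each deposited file lists intensities for 44495 spots and, per the file headers, was made with Feature Extraction 9.5.3.1 (Agilent); the processed signal intensity is background-corrected within the array, and arrays were not scaled to each other. The authors analysed these values in GeneSpring with a paired t-test, and displayed genes relative to their median within an experiment; a scaling between arrays for the test is not given in the sources used here.

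Control spots and outlier-flagged spots (359 to 795 per array) were left out. Levels are log2 of the processed signal minus log2 of the array's 75th percentile, which was 380.2 to 1323, and spots of 1 probe were averaged. Testing took in the 18962 probes whose signal was well above background in every array of 1 treatment or more. The number of arrays and the signal over background limit the precision. All 24 arrays entered 1 fit with limma 3.58.1 in R 4.3.3 (lmFit, eBayes), with 4 treatments and the experiment number as a block, and Benjamini-Hochberg adjustment over all tested probes. Past the test means an adjusted p below 0.01, the fold threshold was 2, and tests were two-sided. The interaction is (NaB minus Ctl) minus (DoxyNaB minus Doxy). The block follows the methods' paired test: arrays of 1 experiment deviated from their treatment means with r of -0.22 to 0.85, over 0.1 in 35 of 36 pairs. The methods call the experiments biological replicates, all of 1 clone. With the block, p-values rest on how treatment differences varied between experiments, with 1 estimate of spread per probe shared over the 4 treatments. Differences in level between whole experiments are taken out.

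A gene was represented by its tested probe of highest mean level. The members were named throughout, and other pathway genes where they passed 2-fold or the interaction, or to account for a role. The members and lists were chosen with earlier results of these data known. Names came from accessions and symbols in the files. The values of 1 pathway gene are not reported here, though list counts include it. The fit was tested on simulated data. Alternatives were normexp background correction, quantile normalization, a floor of 5 followed by median scaling, other probe filters, no replicate block, slide as block, other tests, and leaving out each experiment. Another left out the 2 butyrate arrays with the highest negative controls, NaB of experiment 3 and DoxyNaB of experiment 2.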

Additional observations from a re-analysis of the deposited data

Results flagged for a closer look

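The NaB array of experiment 1 gave the highest NOTCH3 level of its treatment, 0.69, where the next was 0.35, and it gave the lowest JAG1 level of NaB, -1.66, where the next was -0.62. The Doxy array of experiment 1 gave the highest JAG2 level of Doxy, 0.65, where the next was 0.16. These gaps were wide against the range of their group, in 3 of 40 groups checked, and chance gives about 1 in 20. All 3 values were of experiment 1, and those of NOTCH3 and JAG1 came from the same array. The interaction of HEY1, 1.15, stands out because its butyrate response differed without and with doxycycline by a direct test. That difference passed under 7 of 18 alternatives and was 0.11 with normexp.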

How the results depend on the processing

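The count of members called past 2-fold in NaB/Ctl was 4 and fell to 2 with normexp, with the filter on all 24 arrays (which removes HES1 and HEY1) and with experiments 5 and 6 only. With the floor and scaling to the median the count stayed 4 with other members. HEY1 was then higher, and NOTCH3 (-1.01), JAG1 (-1.45) and JAG2 (-1.82) were lower. In DoxyNaB/Doxy the count was 2 and became 1 with normexp and with the filter on all 24 arrays. It was 1 to 3 when 1 experiment was left out. There the floor and scaling to the median called HEY1 higher and JAG1 (-1.56) and JAG2 (-1.23) lower. In Doxy/Ctl the count was 0, and 0 to 1 when 1 experiment was left out. In DoxyNaB/NaB it was 0 throughout. The interaction count of 1 (HEY1) became 0 with normexp, quantile normalization, scaling to the median, the filter on all 24 arrays (where it was not tested), all probes unfiltered (HEY1 adjusted p = 0.0106), no replicate block (0.0364), and likewise the methods' t-test after Benjamini-Hochberg adjustment, experiments 2 to 4 only, and experiments 5 and 6 only, and was 0 to 1 when 1 experiment was left out. Leaving out the replicate block ended the pairing and also ended the NaB/Ctl calls of NOTCH1 (adjusted p = 0.0250), JAG1 (0.0157) and HES1 (0.0685) and the DoxyNaB/Doxy call of DLL1 (0.311). The cause of these changes was not tested.

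A floor of 5 followed by scaling to the median, 2 choices changed together whose parts cannot be told apart here, moved the median change of all tested probes in NaB/Ctl from 0.17 to -0.58 and in DoxyNaB/Doxy from 0.10 to -0.46. Probes called higher and lower in NaB/Ctl were 3926 and 2087 as reported, 1641 and 6123 with that floor and scaling, 2672 and 2930 with quantile normalization, and 1598 and 1403 with normexp. Under that floor and scaling the NaB/Ctl change reversed for NOTCH1 (-0.26), NOTCH2 (-0.0084), DLL1 (-0.66) and HES4 (-0.21), and the DoxyNaB/Doxy change of GFI1 reversed (-0.026, and -0.097 with quantile normalization). JAG2 and HEY1 in NaB/Ctl, and JAG1 and HEY1 in DoxyNaB/Doxy, stayed past the test under every alternative run. Of the member changes under alternatives, 778 kept direction and side of the threshold, 65 lost the call, 3 gained it, 32 uncalled ones changed sign and 3 reversed. Low signal over background limits HES1, HEY1 and ATOH1.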
